A study of Homo sapiens with 12 samples.

Results

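The genes described here encode envelope proteins left in the human genome by ancient retroviral infections: ERVW-1, ERVFRD-1, ERVMER34-1, ERV3-1, ERVV-1, ERVV-2 and ERVH48-1. Each was taken by its symbol in the platform annotation, from an array row that carried that symbol alone. Of these 7 genes 6 had such a row, among 22465 genes in all. The row of ERV3-1 carried 3 names, so it could not be read as this gene and was not used. Levels were compared in RT112 and 5637, established human bladder cancer lines kept in the same serum-containing medium. RT112 was measured untreated (RT112 control) and after CM272, an inhibitor of the histone methyltransferase G9a and of DNA methyltransferases given at its IC50 for a time that the labels do not state. The third group was 5637 after the same compound. Each group had 3 arrays. Whether replicates came from separate cultures is not stated, so the p-values below cover no more than the spread between arrays.

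Retroviral envelope genes are usually kept silent by histone H3 lysine 9 methylation and DNA methylation, which KRAB zinc-finger proteins, TRIM28 and SETDB1 help to place on retroelements. A few have been kept as genes with work in the placenta. Syncytin-1 (ERVW-1) and syncytin-2 (ERVFRD-1) fuse trophoblast cells, and suppressyn (ERVH48-1) blocks the receptor of syncytin-1. ERVMER34-1 encodes HEMO, an envelope protein that is shed from cells. ERVV-1 and ERVV-2 are neighbouring copies of one another on chromosome 19, so probes may not separate them and their individual values are uncertain.

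Untreated 5637 was left out. Over the 67528 transcript-cluster rows its mean correlated with that of treated 5637 at r = 0.0274, while the same correlation was 0.940 between treated and untreated RT112. Its values therefore could not be assigned to genes by row, and no effect of CM272 in 5637 can be given. On the untreated RT112 arrays the mean log2 level of 13 urothelial and epithelial markers lay between 9.76 and 9.85. It lay between 9.51 and 9.55 on treated RT112 arrays and between 8.61 and 8.66 on treated 5637 arrays. That of 12 leukocyte markers lay between 4.50 and 4.60, between 3.94 and 3.97 and between 3.89 and 3.93 in the same order. Not every epithelial marker was high: in untreated RT112 UPK1A stood at 5.40 and UPK3A at 4.38. The median gene stood at 5.53 ± 0.01 (SD, n = 3) on untreated and 4.97 ± 0.01 on treated RT112 arrays. As deposited, the log2 change of the median gene was -0.57, and it was 0.08 with arrays centred on their medians over all transcript-cluster rows, named or not, which raised every change by 0.65, and -0.02 after quantile normalization. Exact ties also followed treatment: 62.1% of all genes had a value that recurred among the 6 treated arrays of both lines. Among the 3 untreated RT112 arrays, a smaller set in which fewer ties are possible, the share was 0.12%. A count over equal numbers of arrays was not made. Treated and untreated arrays may thus have been processed differently before deposit, which cannot be told apart from the effect of CM272 in any change given below, percentiles included. In bulk RNA, fewer cells with a transcript and less of it per cell cannot be told apart. A gene is said to rise or fall below only where limma called it in the same direction in all 3 scalings at an adjusted p below 0.05. Unless another scaling is named, values are on the deposited log2 scale.

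In treated RT112, ERVW-1 rose, ERVMER34-1 and ERVV-1 fell, and ERVFRD-1, ERVV-2 and ERVH48-1 were not called alike in the 3 scalings. That is 1 of 6 members higher, against 10.8% of all genes, and 2 of 6 lower, against 27.8%. With 6 genes, nothing particular to the envelope genes is read from these counts. The same shares, 10.8% and 27.8%, stand beside each later count of genes that rose or fell in treated RT112. On the deposited values alone 1 member was called higher and 3 lower, against 10.8% and 74.2% of all genes. Centring gave 2 higher and 2 lower (40% and 27.8% of all genes), and quantile normalization also gave 2 and 2 (32.7% and 35.5%). The 6 members had a median log2 change of -0.36 as deposited and 0.15 with quantile normalization.

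Between treated 5637 and treated RT112, limma called 0 of 6 members in any of the 3 scalings. On the deposited values 0 had an unadjusted p under 0.05, beside 8826 of all 22465 genes. Of all genes, 17.1% were called higher and 15.8% lower in 5637 as deposited, 18.8% and 13.5% with centred arrays, 17.5% and 15.3% after quantile normalization, and 16.4% and 13.4% in all 3 scalings. Both comparisons use the same treated RT112 arrays.

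**Figure D1:**
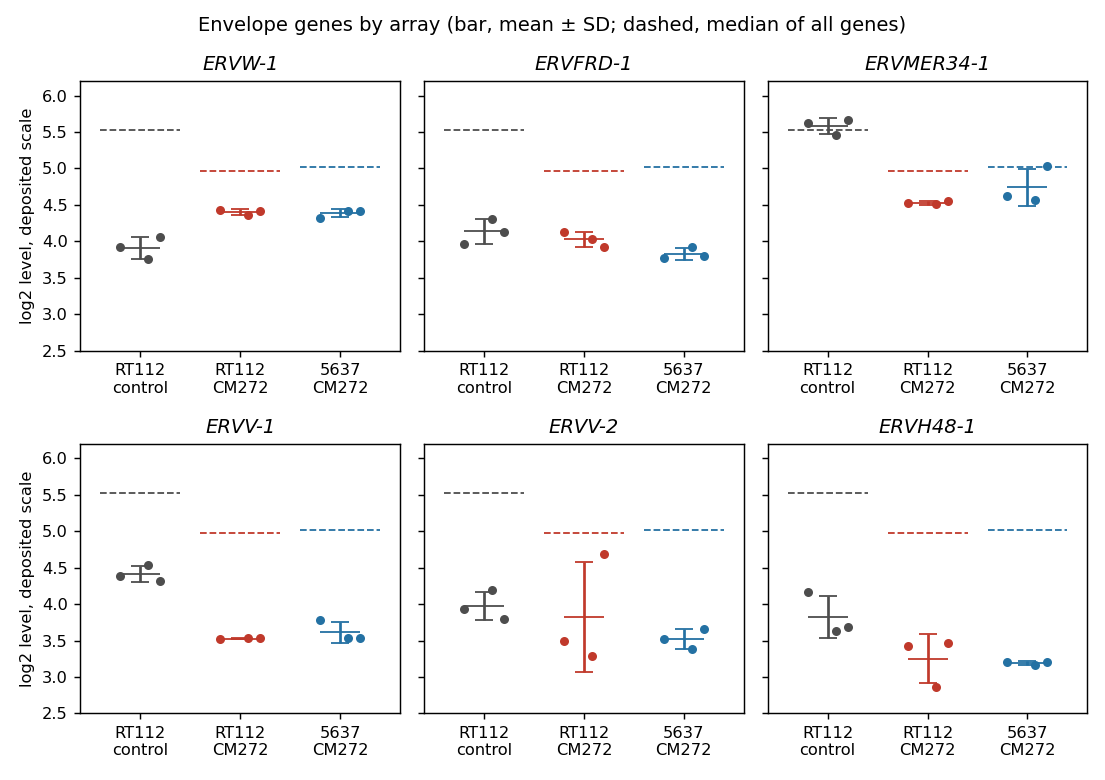
Log2 level on the deposited scale (vertical axis) of each envelope gene on the 9 arrays of 3 groups. Points are arrays, bars the mean ± SD of 3 arrays, and dashed lines the mean of the array medians over all genes, which is 5.53 in untreated RT112 and 4.97 in treated RT112. ERVW-1 is higher on the treated RT112 arrays and ERVMER34-1 and ERVV-1 are lower, as single probe sets on the deposited scale.

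The probe sets of 5 members gave low signal, with mean percentiles from 4.98 to 17.8 among the genes of untreated RT112 arrays, and that of ERVMER34-1 stood at the level of the median gene (mean percentile 50.7). In untreated RT112 the mean levels of the 6 members lay between 3.83 and 5.58 and their median was 4.05, beside a median of 4.48 for leukocyte markers, which these cultures should lack. In treated RT112 the medians were 3.93 and 3.95. Probe sets differ in brightness, so these levels do not rank the genes by transcript number, and the levels of the members other than ERVMER34-1 may be background. In treated RT112 ERVMER34-1 stood at 4.53. CD3E, a T-cell gene and the highest of the 12 leukocyte markers there, stood at 4.61, so the treated level of ERVMER34-1 may be background too.

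The sequence before the genes called in all 3 scalings is shown for its CG dinucleotides, the sites at which DNA methyltransferases act. The windows are the 250 bases before a RefSeq transcript start on GRCh38.p14, read 5′ to 3′ on the strand of the gene, with each CG in capitals. They lie at chr7:92471425-92471674 on the minus strand for ERVW-1, at chr4:52751426-52751675 on the minus strand for ERVMER34-1 and at chr19:53013671-53013920 on the plus strand for ERVV-1. The ERVW-1 window belongs to a start inside the annotated gene, not to its outermost one. Its CG count and motifs given below thus do not describe the sequence before the outermost start.
ERVW-1: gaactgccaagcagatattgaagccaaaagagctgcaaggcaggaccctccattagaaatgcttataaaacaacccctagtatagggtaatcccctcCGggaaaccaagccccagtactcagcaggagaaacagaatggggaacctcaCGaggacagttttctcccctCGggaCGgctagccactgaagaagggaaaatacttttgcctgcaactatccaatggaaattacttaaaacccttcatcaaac
ERVMER34-1: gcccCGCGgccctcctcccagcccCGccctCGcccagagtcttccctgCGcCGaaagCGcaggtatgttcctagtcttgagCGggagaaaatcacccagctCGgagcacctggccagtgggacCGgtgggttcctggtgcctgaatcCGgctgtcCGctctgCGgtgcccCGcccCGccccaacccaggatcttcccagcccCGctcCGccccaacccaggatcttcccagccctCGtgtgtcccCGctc
ERVV-1: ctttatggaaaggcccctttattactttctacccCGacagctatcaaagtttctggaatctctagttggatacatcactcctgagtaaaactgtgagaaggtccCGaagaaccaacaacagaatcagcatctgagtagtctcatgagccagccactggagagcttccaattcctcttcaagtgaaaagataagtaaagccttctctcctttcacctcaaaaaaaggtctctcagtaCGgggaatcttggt

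The window of ERVMER34-1 held 19 CG, a number reached or passed by 34.6% of the 35116 RefSeq windows of the same length, whose median was 11. That of ERVW-1 held 4, and 34.3% of windows held no more. In the window of ERVV-1 there were 3, and 29.3% of windows held no more. The windows of the gene that rose and of ERVV-1, which fell, thus held fewer CG than the median window. That of ERVMER34-1, which also fell, held more. The GC box (GGGCGG, both strands), a binding site of SP1-family factors, occurred 4 times before ERVMER34-1 and was not found in the other windows shown, while 42.6% of all windows held it. CCAAT (both strands) occurred once before ERVW-1 and once before ERVV-1, and 32.0% of windows held it. TATAAA (both strands) occurred once before ERVW-1, and 10.7% of windows held it. ATGCGGGT, bound by the placental factor GCM1, and the AP-1 site TGANTCA (both strands each) were not found in these 3 windows, and occur in 0.205% and 6.57% of all windows. Methylation was not analysed here.

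ERVW-1 encodes syncytin-1. Its log2 level was 3.92, 3.76 and 4.06 on the untreated RT112 arrays and 4.43, 4.36 and 4.42 on the treated ones. Every treated array was above every untreated one. The change was 0.49 ± 0.07 (SE, 95% interval 0.32 to 0.66, adjusted p = 0.000252, limma), a 1.40-fold rise on the deposited scale, where 11.1% of all genes stood higher without overlap. Most genes moved down on that scale, and the rise was larger in the other scalings, at 1.14 ± 0.08 with centred arrays and 1.11 ± 0.08 after quantile normalization (2.16-fold). Among the genes of its own array, ERVW-1 stood between the percentiles 2.95 and 8.03 in untreated RT112 and between 37.6 and 39.2 in treated RT112. The share of all genes that moved as far in percentile was not counted. A rise of similar size from a low level occurred in 1 of the 12 leukocyte markers, CD14, a monocyte receptor gene, which went from 3.77 to 4.24 (0.47 ± 0.07, and 1.07 after quantile normalization). Whether the rise of either gene reflects its own transcript was not tested.

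On the treated 5637 arrays ERVW-1 read 4.32, 4.41 and 4.42, overlapping treated RT112. The difference between the treated lines was -0.02 ± 0.07 (95% interval -0.19 to 0.15, adjusted p = 0.941, limma).

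**Figure D2:**
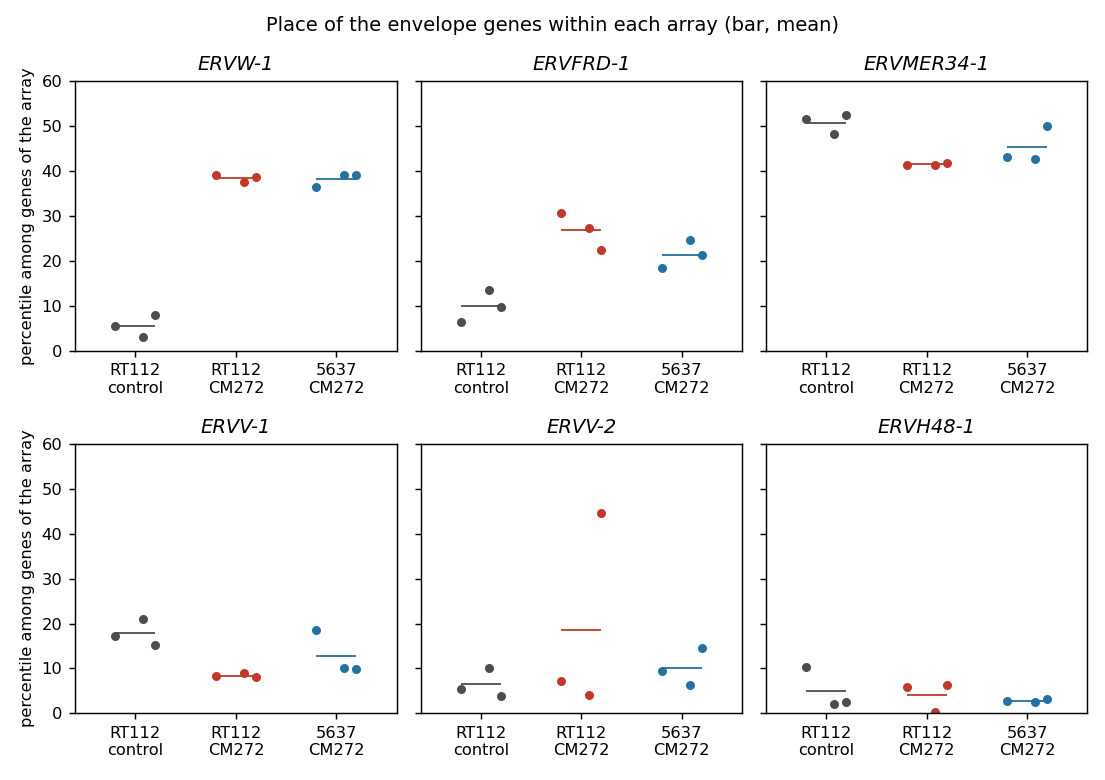
Percentile of each envelope gene among all 22465 genes of the same array (vertical axis). A uniform shift of an array cannot move this measure, but a change in the shape of its distribution can. Points are the 9 arrays and bars the mean of 3. ERVW-1 has a mean percentile of 5.49 in untreated and 38.4 in treated RT112, and ERVFRD-1 of 9.84 and 26.8.

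ERVFRD-1, which encodes syncytin-2, depended on the scaling. Its levels were 3.97, 4.31 and 4.13 untreated and 4.13, 4.03 and 3.92 treated, and the groups overlapped. The log2 change was -0.11 ± 0.09 (95% interval -0.32 to 0.10, adjusted p = 0.291, limma). It was -0.19 without untreated replicate 1 (adjusted p = 0.0743) and -0.02 without untreated replicate 2, and -0.055 without treated replicate 3. With centred arrays it was called higher (0.54 ± 0.09, adjusted p = 0.000757), as it was after quantile normalization (0.50 ± 0.09, adjusted p = 0.00111). Its percentile within the array lay between 6.35 and 13.4 untreated and between 22.4 and 30.6 treated. How many of all genes moved likewise in percentile was not counted. On the treated 5637 arrays it stood at 3.77, 3.92 and 3.80, a difference of -0.20 ± 0.09 from treated RT112 that did not pass (95% interval -0.41 to 0.01, adjusted p = 0.156).

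ERVH48-1 encodes suppressyn, a truncated envelope protein that binds the syncytin-1 receptor. It read 4.16, 3.63 and 3.69 on untreated RT112 arrays and 3.43, 2.86 and 3.46 on treated ones. The groups did not overlap, and 74.3% of all genes likewise stood lower in treated RT112 without overlap. The change of -0.58 ± 0.18 was called lower (adjusted p = 0.0164, limma), beside the median of -0.57 over all genes. It was 0.07 with centred arrays and -0.11 after quantile normalization, neither of which passed (adjusted p = 0.739 and 0.633). Without untreated replicate 1, the highest of its group, the change was -0.41 and did not pass (adjusted p = 0.0585), and 2 rather than 3 members were then called lower, beside 72.4% of all genes. The treated 5637 arrays read 3.20, 3.16 and 3.21, a difference of -0.06 ± 0.18 from treated RT112 (95% interval -0.48 to 0.36).

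ERVMER34-1, the HEMO gene, lay between the percentiles 48.2 and 52.5 of its arrays in untreated RT112. It read 5.62, 5.46 and 5.67 there and 4.52, 4.51 and 4.56 after treatment. Every treated array was below every untreated one, as held for 74.3% of all genes. The change was -1.05 ± 0.12 on the log2 scale (95% interval -1.32 to -0.79, adjusted p = 3.7e-05, limma), or 0.482-fold. It was smaller in the other scalings, at -0.44 ± 0.12 after quantile normalization (adjusted p = 0.0104, 0.738-fold) and -0.40 ± 0.12 with centred arrays (adjusted p = 0.0158). Falls of this size also occurred among 26 trophoblast markers, of which 9 fell and 2 rose. LGALS13 changed by -1.25 and LGALS14 by -1.17, and by -0.65 and -0.55 after quantile normalization. Whether the fall of ERVMER34-1 reflects its own transcript was not tested. In treated 5637 the arrays read 4.62, 4.57 and 5.03. All 3 stood above the treated RT112 arrays, as 21.3% of all genes did without overlap (21.6% stood below), but the difference of 0.21 ± 0.12 did not pass (95% interval -0.06 to 0.48, adjusted p = 0.237). Without 5637 replicate 3, the array at 5.03, it was 0.0656.

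ERVV-1 read 4.39, 4.53 and 4.32 on untreated RT112 arrays and 3.52, 3.53 and 3.53 on treated ones. The groups did not overlap, as for the 74.3% of all genes that stood lower without overlap. The log2 change was -0.88 ± 0.08 (adjusted p = 9.71e-06, limma), -0.31 ± 0.08 after quantile normalization (adjusted p = 0.00586) and -0.23 ± 0.07 with centred arrays (adjusted p = 0.0165). Falls of this size also occurred among leukocyte markers. PTPRC and FCGR3A each changed by -0.87, and by -0.27 and -0.34 after quantile normalization, and LCP2 by -0.78 and -0.18. CD3D changed by -0.74 and was not called with centred arrays. Of the 12 leukocyte markers, 5 fell and 1 rose, and their median change was -0.76.

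The treated value of ERVV-1 was the same number, 3.530737, on 4 arrays, 2 of RT112 and 2 of 5637. Its small spread on treated RT112 arrays (SD 0.01) thus includes equal values, and that spread enters the SE and p of its change. Leaving out genes of equal replicates did not remove ERVV-1, since its 3 values in a group were not all equal. ERVFRD-1 also shared a value, 3.920887, between 1 treated RT112 and 1 treated 5637 array. Treated 5637 read 3.78, 3.53 and 3.53 for ERVV-1, a difference of 0.09 ± 0.08 from treated RT112 (95% interval -0.10 to 0.27, adjusted p = 0.51, limma). Without 5637 replicate 1, the array at 3.78, it was 0.0031.

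ERVV-2, the neighbouring copy, was uneven among treated arrays. The untreated RT112 arrays read 3.93, 4.19 and 3.80 and the treated ones 3.49, 3.29 and 4.69. Treated replicate 3 was the highest of all 9 arrays, and the other treated RT112 arrays lay below every untreated one. The change was -0.15 ± 0.32 (95% interval -0.90 to 0.60, adjusted p = 0.676, limma) and 0.41 ± 0.34 after quantile normalization (adjusted p = 0.307). Without that array it was -0.58 and was called lower (adjusted p = 0.00402), so 1 array decides the call, and 4 rather than 3 members were then called lower, beside 72.8% of all genes. The change of -0.58 is close to the median of -0.57 over all genes. In treated 5637 the values were 3.52, 3.39 and 3.66, and the difference from treated RT112 was -0.30 ± 0.32 (95% interval -1.04 to 0.45), or 0.14 without treated RT112 replicate 3.

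**Figure D3:**
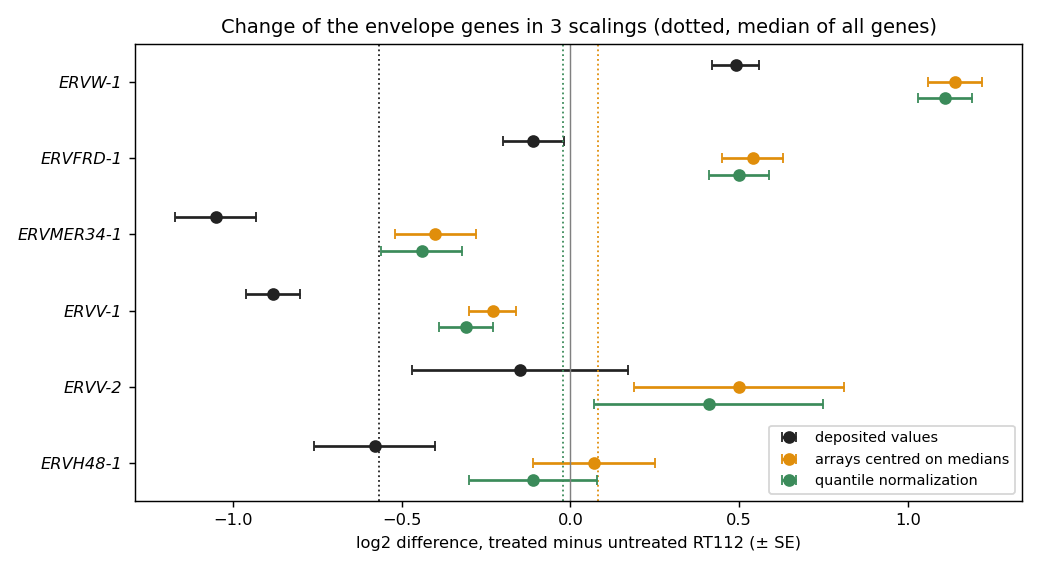
Log2 difference between treated and untreated RT112 (horizontal axis, ± SE, 3 arrays per group) of the 6 envelope genes in 3 scalings. Dotted lines mark the median of all genes in each scaling, which is -0.57 on the deposited values. ERVW-1 lies right of 0 and ERVMER34-1 and ERVV-1 left of 0 in each scaling, while ERVFRD-1 and ERVV-2 change sides between the deposited values and the other scalings, and ERVH48-1 does so with centred arrays.

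Across the 9 arrays, centred on their medians, ERVW-1 correlated with ERVFRD-1 at r = 0.854 and with ERVV-1 at r = -0.727, and ERVV-1 with ERVV-2 at r = -0.39. These values describe 9 arrays in 3 groups that share their treatment contrast. The genes most like ERVW-1 over the same arrays were KRTAP19-6, BUB3 and CWC15, each at r = 0.998. For ERVFRD-1 they were hsa-mir-892c (0.986), STT3A-AS1 (0.975) and RBCK1 (0.974). ERVMER34-1 was most like TRBV7-1 (0.969), IGKV1-6 (0.945) and NAP1L6P (0.937), and ERVV-1 like CLIC6 (0.991), MIR527 (0.97) and OR4F13P (0.964). The genes nearest to ERVV-2 were HDAC11-AS1 (0.951), TUBB1 (0.944) and VSIG10 (0.943), and those nearest to ERVH48-1 were RBMY2EP (0.939), IGLC7 (0.86) and LINC02291 (0.858).

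None of the receptor genes of the syncytins was called alike in all 3 scalings. SLC1A5, the amino acid transporter that serves as syncytin-1 receptor and suppressyn target, stood at 11.96 in untreated and 11.06 in treated RT112. Its change was -0.90 ± 0.13, and -0.78 after quantile normalization, but -0.25 with centred arrays, which did not pass (adjusted p = 0.121, limma). SLC1A4, the other syncytin-1 receptor, changed by -0.61 ± 0.08, and by 0.04 with centred arrays. MFSD2A, the lipid transporter that syncytin-2 binds, went from 7.31 to 7.11, a change of -0.20 ± 0.06 that was 0.26 after quantile normalization.

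Of 9 measured genes of receptors and processing 3 rose and 0 fell. FURIN, a protease that cleaves envelope precursors, rose by 2.11 ± 0.09 from 8.97 to 11.08 (adjusted p = 1.73e-07, limma). LGALS1, which encodes galectin-1, rose by 2.63 ± 0.15 from 9.30 to 11.93, and PDIA3, a disulfide isomerase gene, by 0.54 ± 0.12. P4HB, another disulfide isomerase gene, changed by -0.82 ± 0.07, and by -0.17 with centred arrays. PCSK5, a protease of the furin family, changed by -0.57 ± 0.07, and by 0.07 with centred arrays. In treated 5637 FURIN was lower than in treated RT112 by a log2 difference of -3.26, at 7.81, and SLC1A5 by -0.61, while MFSD2A was higher by 0.46, each called in all 3 scalings.

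Placental regulators of the syncytin genes were split, with 5 of 15 higher and 2 lower. GCM1, the transcription factor that drives syncytin genes in trophoblast, was at 4.10 untreated and 3.39 treated, a change of -0.71 ± 0.07 that was -0.06 with centred arrays. TFAP2C, a trophoblast and epithelial factor, rose by 0.96 ± 0.06 to 7.01. The others that rose were GATA2, GATA3, PRKACA and DLX3, by 0.25 to 0.95. PPARG and RXRA, nuclear receptors that act as a pair, changed by -1.20 ± 0.04 and -1.53 ± 0.05. TEAD4, a factor of early trophoblast, changed by -0.60 ± 0.05, and by 0.03 after quantile normalization.

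Trophoblast markers showed no common rise. Of 26 measured, 2 rose and 9 fell, with a median log2 change of -0.57, as over all genes. Those that rose were PSG1, a pregnancy-specific glycoprotein gene, by 0.25 ± 0.07, and INSL4, a placental insulin-like gene, by 0.71 ± 0.18. CSHL1 (-0.82), LGALS13 (-1.25) and CYP19A1 (-0.84) fell, and PAPPA2 (-0.62) was not called with centred arrays. Their mean level lay between 4.90 and 4.92 on untreated RT112 arrays and between 4.30 and 4.37 on treated ones, and its part in the result for ERVW-1 was not tested.

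The list drawn up for silencing of endogenous retroviruses held 31 measured genes, among them TET1, TET2 and TET3, whose products remove DNA methylation. Of the other 28, 5 rose and 9 fell, with a median change of -0.54, and none of the TET genes was called alike in all 3 scalings. CBX3, a heterochromatin protein gene, changed by -1.70 ± 0.05, from 9.62 to 7.92. EHMT2, the G9a gene, changed by -0.79 ± 0.05 and WIZ, which encodes a partner of G9a, by -0.82 ± 0.04. Both fell, by smaller amounts after quantile normalization (-0.29 and -0.25). ATF7IP, which stabilizes SETDB1, rose by 0.84 ± 0.05 to 11.42. TRIM28, the corepressor recruited by KRAB zinc fingers, rose by 0.20 ± 0.07 (adjusted p = 0.0234, limma). SETDB1, an H3 lysine 9 methyltransferase gene, went from 7.80 to 7.39, a change of -0.41 ± 0.08 that was 0.24 with centred arrays. Between the treated lines 11 of the 28 were called higher and 6 lower in 5637 in all 3 scalings, beside 16.4% and 13.4% of all genes. TET1 was higher there by 2.31 ± 0.07.

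**Figure D4:**
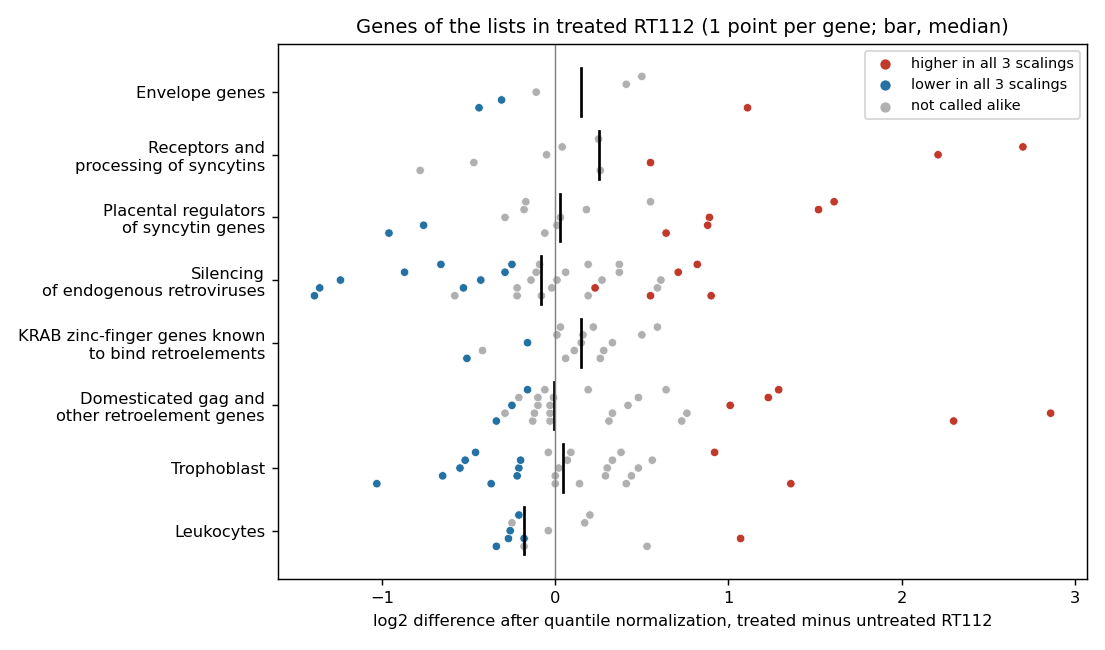
Log2 difference between treated and untreated RT112 after quantile normalization (horizontal axis) for the genes of each list, 1 point per gene, with the list median as a bar. Colours give genes called higher or lower in all 3 scalings. The silencing list includes the 3 TET genes. The envelope genes lie between -0.44 and 1.11, and PEG10 reaches 2.86 among the domesticated retroelement genes.

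Of 15 measured KRAB zinc-finger genes known to bind retroelements, 0 rose and 2 fell, ZNF729 by -0.79 ± 0.05 and ZNF141 by -0.94 ± 0.11. By limma 13 were called lower on the deposited values, as were 74.2% of all genes. An unadjusted p under 0.05 was found there for 13 of the 15, beside 19234 of all 22465 genes. After quantile normalization 6 were called higher and 2 lower, beside 32.7% and 35.5% of all genes. ZNF578 (-0.51), ZNF99 (-0.40) and ZNF558 (-0.57) were at 0.14, 0.25 and 0.08 with centred arrays.

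Among 27 domesticated retroelement genes 5 rose and 3 fell, with a median change of -0.52. PEG10, an imprinted gene derived from a retrotransposon, rose by 2.80 ± 0.12 from 9.45 to 12.24 (adjusted p = 1.6e-07, limma), and stood at 14.21 in treated 5637. ARC, a gag-derived neuronal gene, rose by 1.63 ± 0.10. L1TD1, derived from a LINE element, went from 4.68 to 3.80 and PNMA5, a gag-like gene, from 4.44 to 3.54, and both fell. PNMA3 changed by -0.75 ± 0.03, and by -0.10 with centred arrays. The other ERV-named genes with a row of their own were ERVK3-1, which rose from 8.86 to 9.35 (0.50 ± 0.10, adjusted p = 0.00182, limma), and ERVK13-1, which changed by -0.24 ± 0.08 and by 0.41 with centred arrays.

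The epithelial markers held both directions, with 5 of 13 higher and 3 lower. KRT8 rose by 1.68 ± 0.10, KRT5 and KRT19 changed by -2.35 ± 0.06 and -1.84 ± 0.11, and UPK3A by -0.76 ± 0.05, which was not called with centred arrays. Of 11 stromal and endothelial markers 0 rose and 2 fell, VWF by -0.89 ± 0.04 and LUM by -1.05 ± 0.15, while DCN (-0.73), TEK (-0.76) and PDGFRB (-0.47) were not called alike. On the deposited values limma called 0 of the 11 higher, beside 10.8% of all genes. An unadjusted p under 0.05 was found for 8, beside 19234 of all 22465 genes. All 8 were called lower, as were 74.2% of all genes.

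The nearest measured protein-coding genes, 2 on each side of each envelope gene in the gene order of GRCh38.p14, came to 24 genes, of which 5 rose and 9 fell. Beside ERVW-1, RBM48 rose by 1.69 ± 0.16, GATAD1 (-0.92) and CDK6 (-1.53) fell, and ANKIB1 changed by -0.15. Around ERVMER34-1, SPATA18 (-0.92) and SCFD2 (-1.03) fell, while USP46 (-0.62) and RASL11B (-0.48) were not called alike. ERVV-1 and ERVV-2 lie among zinc-finger genes, of which ZNF888 rose by 0.55 ± 0.11, ZNF320 (-1.25) fell, and ZNF160 and ZNF415 changed by -0.42 and 0.17. At the ERVH48-1 locus PKNOX1 rose by 0.38 ± 0.04, WDR4 (-0.98) and CBS (-0.80) fell, and NDUFV3 changed by -0.54. Next to ERVFRD-1, ELOVL2 rose by 0.19 ± 0.06 and TMEM170B (-0.89) fell, while SYCP2L (-0.39) and NEDD9 (-0.06) were not called alike. At ERV3-1, which has no value of its own, ZNF92 rose by 0.61 ± 0.13, VKORC1L1 (-0.97) fell, and ZNF273 and ZNF138 changed by -0.75 and -0.08. Each of these loci except that of ERVMER34-1 thus had neighbours called in both directions.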

How the data were processed

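Total RNA was hybridised to Affymetrix whole-transcript arrays, of which 9 in 3 groups were used. The authors deposited 1 table of log2 values (70523 rows), which per the submitters' processing notes come from RMA and Affymetrix Expression Console. No version or genome build is given in the sources used here. With 3 arrays a group, their number limits the precision. GEO's platform annotation gave 1 symbol to 23781 rows, covering 22465 genes, and several to 1543. The brightest row per gene was taken. The fit used limma 3.58.1 under R 4.3.3 (functions lmFit and eBayes, Benjamini-Hochberg over all genes, threshold 0.05) on the deposited values, on arrays centred on their medians and after quantile normalization over all arrays. The fit was tested on simulated data without an array-wide shift and without ties, so that test does not cover these features of the arrays. Alternatives were 6 arrays only, a replicate block, an intensity trend, a filter on dim genes, leaving out genes of equal replicates, mean rows, and each replicate left out. Members and lists were chosen with earlier results of these data known. Named were all members, the 4 genes per list with the smallest adjusted p, 8 genes by name, the 3 most correlated genes, and the neighbours. Of the 8, ZNF117 shares the row of ERV3-1 and has no value. CD14, CD3E, PDIA3, GATA2, GATA3, PRKACA, DLX3, PSG1, INSL4, LGALS14, ZNF141, ARC, LUM and the TET genes were chosen after their values were seen. Of the 7 genes 4 had a RefSeq promoter window.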

Additional observations from a re-analysis of the deposited data

How the results depend on the processing

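In treated against untreated RT112, the calls of ERVW-1, ERVMER34-1 and ERVV-1 kept their direction and side of the threshold under each alternative that tested them. The filter on dim genes left no member. Centring raised every change by 0.65, so it could not undo the direction of the ERVW-1 rise. All 2433 genes called higher as deposited were called higher in all 3 scalings. Likewise all 6235 called lower with centred arrays were called lower in all 3. With each replicate left out in turn, their log2 changes lay between 0.41 and 0.56, between -1.12 and -1.01, and between -0.93 and -0.82. Centring and quantile normalization turned ERVFRD-1 to 0.54 and 0.50 and ERVV-2 to 0.50 and 0.41, and centring turned ERVH48-1 to 0.0713. These scalings took the members called higher from 1 to 2, and all genes called from 2433 higher and 16660 lower to 8985 and 6235 with centred arrays and 7336 and 7984 after quantile normalization. The filter left 11232 genes, of which 7026 were called lower. Leaving out replicates gave 1 member called higher (10.2% to 10.6% of all genes) and 2 to 4 lower (72.3% to 73% of all genes), with ERVFRD-1 between -0.19 and -0.02 and ERVV-2 between -0.58 and 0.12, and reversed it to 0.02 and 0.12 without treated replicates 1 and 2. Between the treated lines differences near 0 changed sign: ERVW-1 to 0.0273 with centred arrays, 0.0254 after quantile normalization and between -0.038 and 0.0148 with a replicate left out, ERVH48-1 to 0.0111 after quantile normalization and between -0.25 and 0.0493, ERVV-2 between -0.56 and 0.14, while ERVMER34-1 lay between 0.0656 and 0.2949 and ERVV-1 between 0.0031 and 0.1268. Replicate numbers did not pair the arrays: deviations of same-numbered RT112 arrays correlated between -0.0889 and -0.0588. With the replicate block 1 member was called higher and 3 lower, and of all genes 2386 and 16508; the block changed no call of a member. Low signal limits the members other than ERVMER34-1, and may limit ERVMER34-1 on the treated arrays. The cause of the dependence on scaling was not tested.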
